A study of Homo sapiens with 12 samples.

Results

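The genes described here are the human heat shock proteins and the chaperones and co-chaperones that carry a family symbol. They were chosen by symbol, as every gene on the array whose accession maps to a symbol of the HSPA, HSPB, DNAJA, DNAJB, DNAJC or BAG families, to HSP90AA1, HSP90AB1, HSP90B1, HSPH1, HSPD1, HSPE1, TCP1 or one of CCT2 to CCT8, or to the transcription factors HSF1 and HSF2, without pseudogenes. This gave 87 genes on 115 array features, of 27522 gene names and 34127 features on the array in all. One further gene of the reference table, BAG6, was not analysed here. Cytoplasmic RNA came from U2OS, a human osteosarcoma cell line, transfected with 20 nM of a control siRNA or of siRNA against DBP5 (gene DDX19B), GLE1 or IPPK. DBP5 is a DEAD-box helicase of mRNA export, GLE1 stimulates it, and IPPK makes inositol hexakisphosphate, which acts with GLE1. The 4 groups therefore share the cell line, the transfection and the siRNA dose, and differ in the siRNA target. Each group had 3 one-colour arrays, and every slide, 3 in all, carried a single array per siRNA. The methods call the arrays independent experiments but the labels do not name separate cultures, so p-values measure only the spread between these arrays. The methods also list more than one siRNA for the control, GLE1 and IPPK, and the labels do not say which one was on the arrays.

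Molecular chaperones bind unfolded proteins and help them to fold, to cross membranes or to be degraded. HSP70 proteins (HSPA) work in cycles of ATP hydrolysis that J proteins (DNAJ) start and nucleotide exchange factors such as BAG proteins end, and they pass some clients to HSP90 or to the barrel-shaped chaperonins. Small heat shock proteins (HSPB) hold unfolded proteins without using ATP. In heat shock and other proteotoxic stress the factor HSF1 binds repeats of a short heat shock unit and raises a subset of these genes, and a separate response of the endoplasmic reticulum (ER) raises the chaperones of that compartment through the ER stress element.

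The promoters of 4 genes whose values differ in kind are shown here, chosen after the values were seen. They are the 250 bases before the start of the gene in RefSeq's assembly GRCh38.p14, in the direction of transcription, and capitals mark motif matches. HSPA1A (chr6:31815293-31815542, plus strand) fell in every knock-down and holds 1 pair of facing heat shock units. HSPA8 (chr11:123062137-123062386, minus strand) holds 4 overlapping pairs, which form 2 runs of 3 units. HSPA5 (chr9:125241344-125241593, minus strand) rose in every knock-down and holds the ER stress element. HSPB3 (chr5:54455449-54455698, plus strand) had the widest range over the 12 arrays among the family genes tested and holds 1 pair of units.
HSPA1A: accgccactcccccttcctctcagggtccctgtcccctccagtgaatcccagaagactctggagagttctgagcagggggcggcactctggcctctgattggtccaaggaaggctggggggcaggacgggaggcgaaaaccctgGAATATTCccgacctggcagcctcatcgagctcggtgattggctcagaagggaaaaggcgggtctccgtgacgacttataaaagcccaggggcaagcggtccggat
HSPA8: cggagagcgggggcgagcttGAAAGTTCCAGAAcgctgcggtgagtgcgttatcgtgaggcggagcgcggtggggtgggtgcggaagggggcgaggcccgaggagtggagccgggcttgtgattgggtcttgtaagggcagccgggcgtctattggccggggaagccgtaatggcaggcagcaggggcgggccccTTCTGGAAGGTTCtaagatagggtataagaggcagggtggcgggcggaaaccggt
HSPA5: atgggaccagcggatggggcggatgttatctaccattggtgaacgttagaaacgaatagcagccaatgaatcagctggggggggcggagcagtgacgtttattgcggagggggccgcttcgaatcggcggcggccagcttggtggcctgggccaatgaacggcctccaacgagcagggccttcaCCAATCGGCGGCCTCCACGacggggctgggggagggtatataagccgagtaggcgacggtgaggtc
HSPB3: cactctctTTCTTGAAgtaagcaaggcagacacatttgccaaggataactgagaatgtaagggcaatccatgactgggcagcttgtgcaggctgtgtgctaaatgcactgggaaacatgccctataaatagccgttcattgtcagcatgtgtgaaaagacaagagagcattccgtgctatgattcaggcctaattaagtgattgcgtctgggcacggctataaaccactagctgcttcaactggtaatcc

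A pair of heat shock units was searched as GAANNTTC or TTCNNGAA, each of which reads the same on both strands. Of 27305 promoters in the table, 3208 (11.7%) held such a pair, and of the 77 promoters of these family genes 16 (20.8%) did. Runs of 3 units in alternating direction, which contain pairs, were in 120 promoters (0.439%), 3 of them of family genes, DNAJB6, HSPA6 and HSPA8. The ER stress element, with its gap of unspecified bases, was in 22 promoters (0.0806%), 2 of them of family genes, HSPA5 and HSP90B1. Both copies of the inducible HSP70, HSPA1A and HSPA1B, held a pair, while HSPH1, HSPD1, HSPE1 and DNAJB1 held none in this window. A match is a run of letters and was not tested for binding.

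Each siRNA lowered the mRNA of its own target, to 0.0643 of control for DDX19B, 0.102 for GLE1 and 0.187 for IPPK. In other knock-downs DDX19B was at 0.49 of control after GLE1 siRNA and IPPK at 0.42 after DBP5 siRNA. Of 8 markers of U2OS and bone cells, 6 were well above background on all 12 arrays, while COL1A2 was well above it on 3 control arrays, 0 DBP5, 2 GLE1 and 0 IPPK arrays and IBSP on none. Their levels differed between the groups, with COL1A1 at 0.252 and RUNX2 at 0.615 of control after IPPK siRNA and BGLAP at 2.44, 1.77 and 1.63 after DBP5, GLE1 and IPPK siRNA. Among 8 markers of other cell types, EPCAM, PTPRC and APOA1 were also well above background on all 12 arrays and KRT5 on none. The summed intensity of the 3 epithelial markers was 671 to 808 on the control arrays, 474 to 510 after DBP5 siRNA, 525 to 735 after GLE1 siRNA and 271 to 516 after IPPK siRNA. Within that list CDH1 was well above background on 0 control, 3 DBP5, 3 GLE1 and 2 IPPK arrays and was 9.86 times the control value after GLE1 siRNA. The 3 blood markers summed to 96.9 to 121 in control and to between 85.7 and 130 in the knock-downs, and the 2 liver markers to 151 to 161 in control and to between 157 and 190. The nuclear RNA MALAT1 was well above background on all 12 arrays, at 0.692, 0.798 and 0.474 of control. The part of these markers, and of nuclear RNA in the fraction, in the chaperone values was not tested. In bulk RNA, fewer cells of one type and less RNA per cell cannot be told apart, and no nuclear or total RNA was analysed here, so synthesis, export and decay of an mRNA were not separated.

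Values are log2 intensities after subtraction of the local background and loess normalization between arrays, for the brightest feature of each gene. A gene was tested if the scanner software called that feature well above background throughout 1 siRNA group or more, and 81 of the 87 genes were. The others were HSPA4L, HSPA12B, CCT6B, DNAJB7, DNAJB8 and DNAJC5B. A gene is said to rise or fall where limma, fitted to all 20821 genes kept, gave a Benjamini-Hochberg adjusted p under 0.05. A ratio to control is that of the group means of the log2 values turned back to the linear scale, and its SD is that of the 3 arrays set against the control mean. All 3 knock-downs were compared with the same control arrays.

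Chaperone genes moved in both directions in every knock-down, and more fell than rose. After DBP5 siRNA 30 of the 81 genes fell (37%) and 22 rose (27.2%), where 27.5% of all genes kept fell and 26.7% rose. GLE1 siRNA lowered 38 (46.9%) and raised 24 (29.6%), against 31.5% and 30.6% of all genes. IPPK siRNA lowered 29 (35.8%) and raised 23 (28.4%), against 28% and 27.3%. The shares that rose lay close to those of all genes. The shares that fell were above those of all genes in each knock-down, by the widest margin after GLE1 siRNA. No test was made of these shares. The paired test that the methods name, which uses the spread of each gene alone, adjusted in the same way, called fewer genes, with 14 lower and 9 higher for DBP5 siRNA, where it called 2603 and 2443 of all genes, and 19 and 15 for IPPK siRNA, where it called 3689 and 3943.

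Changes of at least 1.5-fold numbered 11 falls and 7 rises after DBP5 siRNA, where 12.1% and 12.6% of all genes passed. After GLE1 siRNA 20 genes fell and 20 rose by that much, with 17.7% and 16% of all genes. After IPPK siRNA 6 fell and 10 rose, with 12.6% and 13.2%. At this threshold the share of the 81 genes that fell after IPPK siRNA thus lay below that of all genes. The median log2 difference from control of the 81 genes was -0.08, -0.18 and 0.00 for DBP5, GLE1 and IPPK, and that of all genes was -0.02, 0.01 and -0.03. On each slide the knock-down array can be set against the control array of the same slide. Every gene called lower was lower on all 3 slides in its knock-down. Of the genes called higher, 21 of 22 were higher on all 3 slides after DBP5 siRNA, all 24 after GLE1 siRNA and 22 of 23 after IPPK siRNA, the exceptions being DNAJC18 and HSPB3. The 3 arrays did not overlap the control arrays for 29 of the 30 genes called lower and 20 of the 22 called higher after DBP5 siRNA, for all of them after GLE1 siRNA, and for all 29 and 22 of 23 after IPPK siRNA. These genes had been called on the same arrays, so near-complete counts were favoured beforehand and are no added support. The matching counts over all called genes were not made here.

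**Figure D1:**
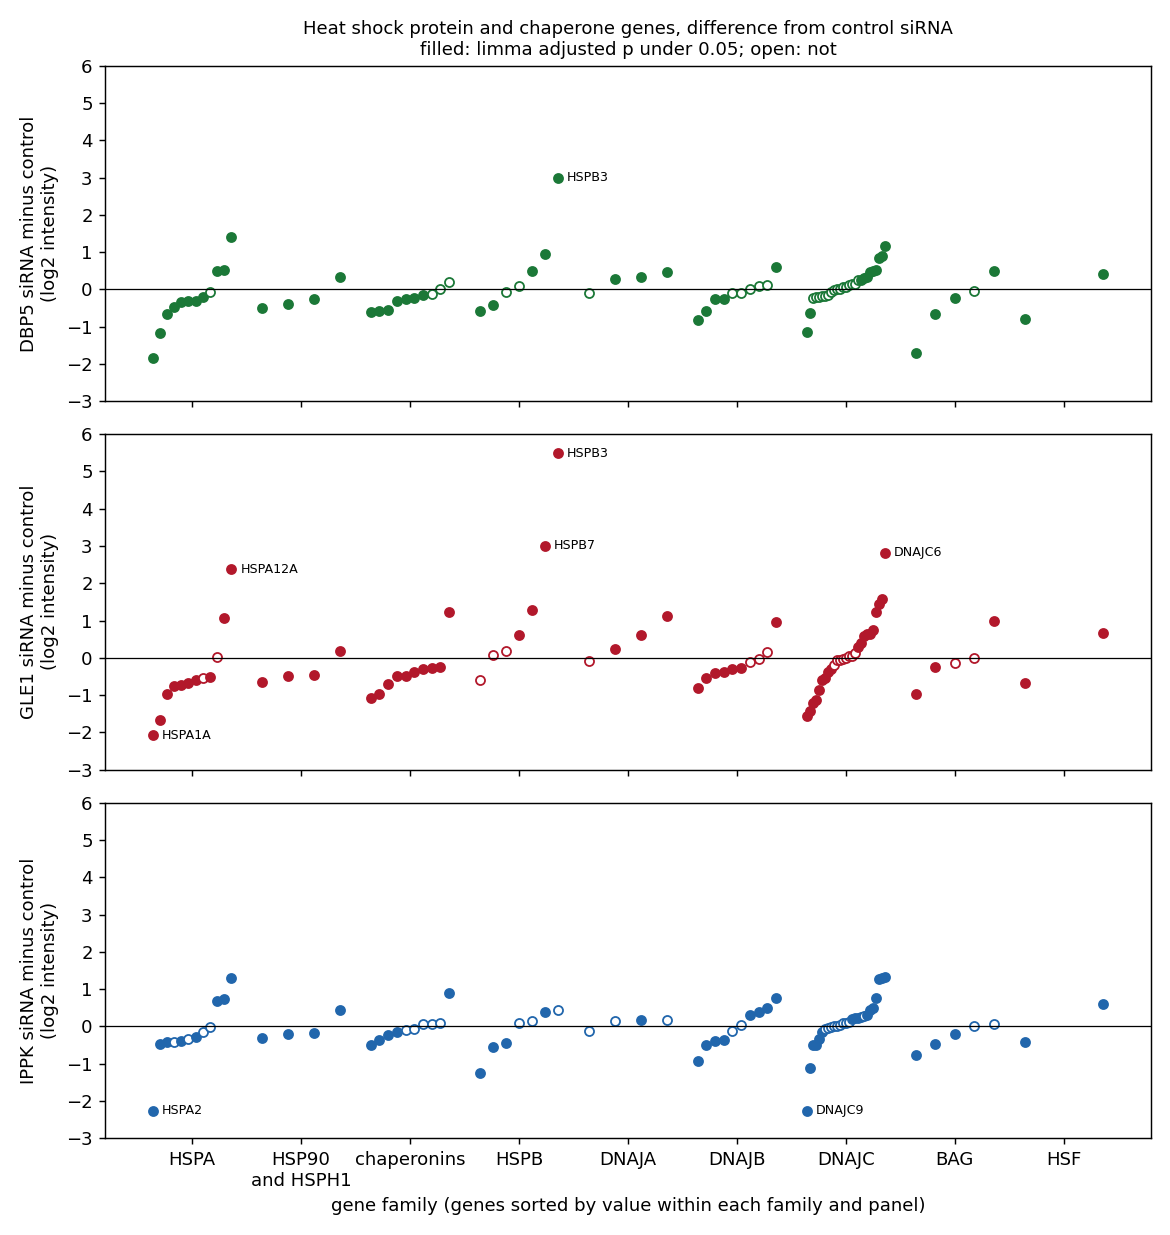
Difference from control siRNA (log2 intensity, vertical axis) of the 81 tested genes by family, one panel per knock-down, filled where the limma adjusted p was under 0.05 and open otherwise. HSPB3 stands at 3.00 after DBP5 siRNA and 5.49 after GLE1 siRNA, while HSPA1A is the lowest gene after GLE1 siRNA at -2.07.

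In all 3 knock-downs 18 genes fell. They were the HSP70 genes HSPA1A, HSPA1B, HSPA1L, HSPA2 and HSPA4, HSP90AB1, HSP90B1 and HSPH1, the chaperonin subunits TCP1, CCT2, CCT6A and CCT8, the J proteins DNAJB12, DNAJB13 and DNAJC9, BAG4 and BAG5, and HSF2. HSPA2 entered the test through the control arrays alone, where it had to be higher, and its call after GLE1 siRNA was lost with normexp background correction, which leaves 17 genes without it. In all 3 knock-downs 11 genes rose, namely HSPA5, HSPA12A, HSP90AA1, HSPB3, HSF1 and the J proteins DNAJC5, DNAJC6, DNAJC13, DNAJC16, DNAJC24 and DNAJC25. Other calls in these lists were also lost under some alternatives, as given with each gene. Among them were HSPB3, HSP90AB1, HSPH1 and BAG4 after IPPK siRNA and DNAJC25 after DBP5 siRNA. For HSP90AA1 after DBP5 siRNA neither dimmer feature passed. Another 8 passed the threshold downward after GLE1 siRNA and not in the other knock-downs, among them HSPA8, HSPD1 and DNAJB1. For CCT3, at 0.836 ± 0.0195 of control after GLE1 siRNA, and DNAJC11, at 0.687 ± 0.015, GLE1 siRNA differed from DBP5 siRNA (limma adjusted p = 0.00217 and 8.5e-06) and from IPPK siRNA (0.018 and 1.4e-05). Of the other 6, HSPA8 was not distinguished from IPPK siRNA, and the tests stand with each gene. Since the comparisons share their control arrays, these counts describe the genes and are no measure of likeness between the knock-downs. The share of all genes with each pattern was not counted here. No call was made in any knock-down for HSPB6, HSPB9, DNAJC5G, DNAJC7 and DNAJC15.

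The 2 heat shock factors moved in opposite directions. HSF1, which drives the heat shock response, had log2 intensities of 16.21, 16.21 and 16.22 on the control arrays. Its values were 16.68, 16.57 and 16.62 after DBP5 siRNA, 16.95, 16.84 and 16.87 after GLE1 siRNA and 16.89, 16.81 and 16.79 after IPPK siRNA. Every knock-down array was above every control array. HSF1 rose 1.33 ± 0.0552-fold, 1.59 ± 0.0649-fold and 1.53 ± 0.0571-fold (SD, n = 3; limma adjusted p = 5.6e-05, 9.1e-07 and 2.8e-06). Both of its dimmer features rose as well in each knock-down.

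HSF2, a related factor best known from development, had 11.88, 11.94 and 11.88 on the control arrays. After DBP5 siRNA it had 11.10, 11.10 and 11.08, after GLE1 siRNA 11.32, 11.14 and 11.24, and after IPPK siRNA 11.54, 11.44 and 11.49. All 9 knock-down arrays lay below the control arrays. The ratios to control were 0.574 ± 0.00402, 0.63 ± 0.0404 and 0.755 ± 0.0271 (limma adjusted p = 6.7e-07, 1.6e-06 and 9.7e-05).

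Of 12 HSP70 genes tested, 8 fell and 3 rose after DBP5 siRNA, 8 fell and 2 rose after GLE1 siRNA, and 5 fell and 3 rose after IPPK siRNA, with medians of -0.31, -0.63 and -0.30 on the log2 scale. The shares that fell, 66.7%, 66.7% and 41.7%, stood against 27.5%, 31.5% and 28% of all genes, and those that rose were 25%, 16.7% and 25%, against 26.7%, 30.6% and 27.3%. Without HSPA2, which was well above background on control arrays and hardly elsewhere, 7, 7 and 4 of 11 fell. HSPA1A and HSPA1B, neighbouring genes for the stress-inducible cytosolic HSP70, fell in every knock-down. HSPA1A had log2 intensities of 14.85, 14.87 and 14.92 on the control arrays, 14.14, 14.26 and 14.30 after DBP5 siRNA, 12.83, 12.80 and 12.82 after GLE1 siRNA, and 14.38, 14.42 and 14.42 after IPPK siRNA. The GLE1 arrays formed a group of their own, well below the other 9. Its ratio to control was 0.638 ± 0.0342, 0.239 ± 0.00285 and 0.72 ± 0.0105 for DBP5, GLE1 and IPPK, so that GLE1 siRNA lowered it 4.19-fold (limma adjusted p = 3.6e-10). It was lower after GLE1 siRNA than after DBP5 siRNA by 1.42 and than after IPPK siRNA by 1.59 on the log2 scale (limma adjusted p = 7.5e-09 and 2.3e-09).

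HSPA1B had 13.57, 13.58 and 13.46 on the control arrays and 11.84, 11.83 and 11.89 after GLE1 siRNA. It was at 13.05, 13.04 and 13.07 after DBP5 siRNA and at 13.10, 13.16 and 13.07 after IPPK siRNA, between the control and the GLE1 arrays. The ratios of HSPA1B were 0.715 ± 0.00635, 0.311 ± 0.00647 and 0.744 ± 0.0238 (limma adjusted p = 1.1e-05, 1.0e-09 and 2.8e-05). The 2 genes are near-identical copies whose features may share signal, so the separate values of the pair are uncertain.

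HSPA8, the constitutive cytosolic HSP70 whose promoter has the runs of 3 units shown above, varied between arrays. It had 15.66, 15.54 and 15.68 on the control arrays, 15.28, 15.48 and 15.87 after DBP5 siRNA, 14.95, 14.87 and 14.89 after GLE1 siRNA and 14.76, 15.39 and 15.43 after IPPK siRNA. The GLE1 arrays agreed closely and lay below control, at a ratio of 0.606 ± 0.0177 (limma adjusted p = 0.00506), while the DBP5 arrays spread across the control values. After IPPK siRNA the ratio was 0.741 ± 0.179 and did not pass (limma adjusted p = 0.0656), though it did with the slide number as a block (limma adjusted p = 0.0405) and without DBP5 array 3 or IPPK array 3 (0.0408 and 0.0389). Without IPPK array 1, the lowest, the log2 difference went from -0.43 to -0.22 (limma adjusted p = 0.226). GLE1 siRNA differed from DBP5 siRNA for HSPA8 (limma adjusted p = 0.0115) and was not distinguished from IPPK siRNA (0.194). HSPA9, the HSP70 of the mitochondrial matrix, fell to 0.783 ± 0.0299 of control after DBP5 siRNA and to 0.595 ± 0.00444 after GLE1 siRNA. After IPPK siRNA it was at 0.984 ± 0.029, with a 95% interval of -0.13 to 0.09 for the log2 difference.

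HSPA5, or BiP, the HSP70 of the ER, went the other way. It had 10.34, 10.48 and 10.25 on the control arrays, 11.06, 10.68 and 10.76 after DBP5 siRNA, 11.29, 11.44 and 11.60 after GLE1 siRNA and 11.74, 11.60 and 11.64 after IPPK siRNA. No knock-down array overlapped the control arrays. HSPA5 rose 1.39 ± 0.204-fold, 2.12 ± 0.227-fold and 2.47 ± 0.128-fold (limma adjusted p = 0.00434, 9.8e-06 and 3.5e-06). The rises after GLE1 and IPPK siRNA exceeded that after DBP5 siRNA by 0.61 and 0.83 on the log2 scale (limma adjusted p = 8.9e-04 and 1.4e-04) and were not distinguished from each other (limma adjusted p = 0.116).

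HSPA12A, a distant relative of HSP70, had 9.37, 9.47 and 9.32 on the control arrays. It had 10.96, 10.65 and 10.74 after DBP5 siRNA, 11.78, 11.71 and 11.81 after GLE1 siRNA and 10.24, 9.99 and 10.08 after IPPK siRNA. The 4 groups were separate from one another. It rose 2.63 ± 0.297-fold, 5.22 ± 0.201-fold and 1.65 ± 0.148-fold (limma adjusted p = 4.6e-07, 5.6e-09 and 5.6e-05), and each pair of knock-downs differed.

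**Figure D2:**
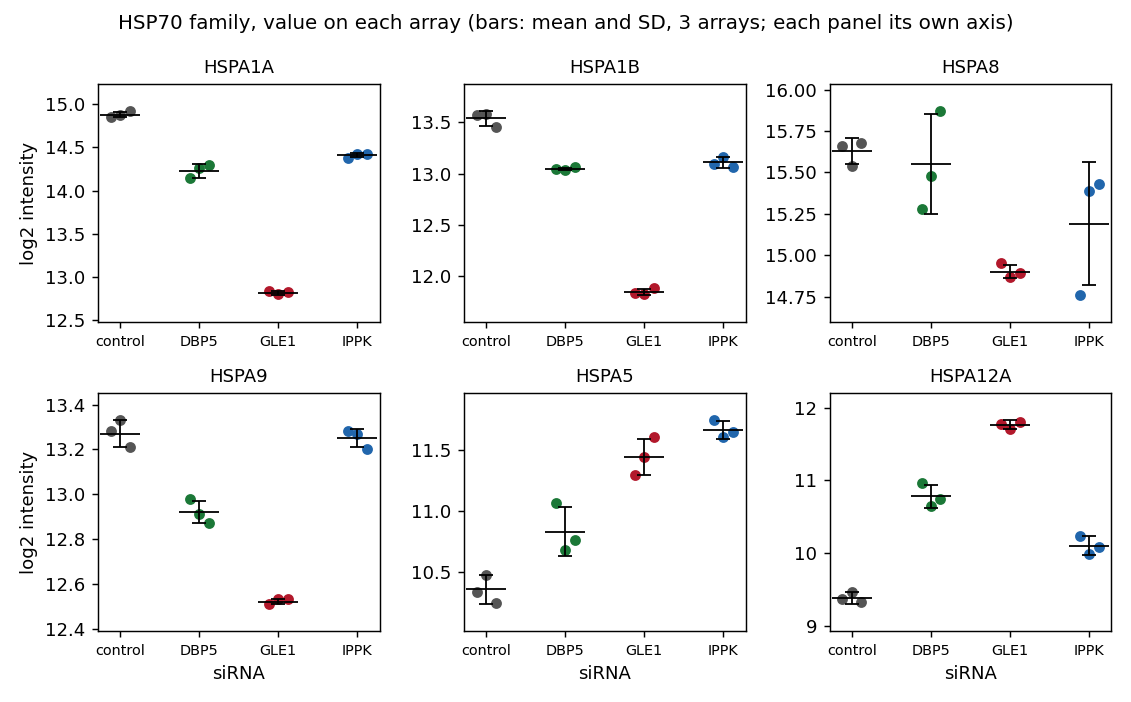
Log2 intensity (vertical axis) of 6 HSP70 genes on each of the 12 arrays (coloured points) by siRNA, with the mean and SD of 3 arrays in black, each panel on its own axis. HSPA1A and HSPA1B are lowest on the GLE1 arrays, HSPA5 and HSPA12A are above control on every knock-down array, and HSPA8 has 1 IPPK array at 14.76 below the others.

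Other HSP70 genes gave smaller or less certain values. HSPA13, an ER-associated member, had 11.78, 11.91 and 11.73 on the control arrays and 10.86, 10.46 and 10.57 after DBP5 siRNA, a fall to 0.443 ± 0.0658 (limma adjusted p = 0.00349). Its GLE1 arrays spread from 10.48 to 11.72, and the difference of -0.53 did not pass (limma adjusted p = 0.112) except without GLE1 array 3, where it was -0.75. Without GLE1 array 1, the lowest, it was -0.13 (limma adjusted p = 0.336). After IPPK siRNA the difference of -0.33 passed only without GLE1 array 1 or with the control and IPPK arrays alone (limma adjusted p = 0.0186 and 0.00616). HSPA2, best known from the testis, was dim, at 4.54, 4.51 and 4.71 on the control arrays and at 2.07 to 4.07 on the others. It was well above background on 3 control arrays, 0 DBP5 and 0 IPPK arrays, which makes it, with the local background subtracted, at least 2-fold lower after DBP5 siRNA and at least 1.49-fold lower after IPPK siRNA. It therefore entered the test through the control arrays alone, which had to favour a fall, so its calls are given as a description. After GLE1 siRNA 1 array was well above background, and the log2 difference of -0.97 became -0.17 and its call was lost with normexp background correction, a method that leaves more of the background in dim spots. With normexp HSPA2 was lower by less than these bounds after DBP5 and IPPK siRNA too, at log2 differences of -0.29 and -0.34. HSPA14, which acts at the ribosome, rose 1.43-fold after DBP5 siRNA and 1.59-fold after IPPK siRNA (limma adjusted p = 1.7e-05 and 2.6e-06) and was at 1.02 of control after GLE1 siRNA.

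The J proteins, the partners that start the HSP70 cycle, formed the largest group. All 4 DNAJA genes were tested, and 3 rose after DBP5 siRNA, 3 after GLE1 siRNA and 1 after IPPK siRNA, with none falling. A count over 4 genes is read against the shares of all genes that rose, 26.7%, 30.6% and 27.3%. DNAJA2, a cytosolic partner of HSP70, had 9.47, 9.62 and 9.43 on the control arrays and 10.52, 10.76 and 10.64 after GLE1 siRNA. It rose 2.19 ± 0.189-fold there (limma adjusted p = 7.3e-07), whereas its DBP5 and IPPK arrays, at 9.24 to 9.48, overlapped control. GLE1 siRNA differed from both (limma adjusted p = 6.8e-07 and 4.1e-07). DNAJA4 rose 1.38 ± 0.152-fold after DBP5 siRNA and 1.54 ± 0.00773-fold after GLE1 siRNA (limma adjusted p = 3.7e-04 and 2.9e-05).

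Of 10 DNAJB genes tested, 4 fell and 1 rose after DBP5 siRNA, 6 fell and 1 rose after GLE1 siRNA, and 4 fell and 4 rose after IPPK siRNA. The shares that fell were 40%, 60% and 40%, against 27.5%, 31.5% and 28% of all genes. Those that rose were 10%, 10% and 40%, against 26.7%, 30.6% and 27.3%, so after IPPK siRNA as many rose as fell. DNAJB1, the stress-inducible HSP40, had 12.83, 12.77 and 12.80 on the control arrays and 12.39, 12.18 and 12.22 after GLE1 siRNA. It fell to 0.691 ± 0.054 there (limma adjusted p = 1.8e-05), and was at 0.936 ± 0.0316 and 0.922 ± 0.0252 after DBP5 and IPPK siRNA. DNAJB1 was lower after GLE1 siRNA than after either (limma adjusted p = 1.1e-04 and 1.3e-04). DNAJB4, a relative of DNAJB1, rose 1.53 ± 0.146-fold after DBP5 siRNA and 1.41 ± 0.0388-fold after IPPK siRNA and was at 1.11 ± 0.015 after GLE1 siRNA (limma adjusted p = 0.092, and 0.0254 without DBP5 array 2). DNAJB12, of the ER membrane, fell to 0.565 ± 0.0563, 0.831 ± 0.0201 and 0.524 ± 0.0285, and was higher after GLE1 siRNA than after either other knock-down (limma adjusted p = 1.3e-04 and 3.0e-05). DNAJB13, a protein of motile cilia and sperm tails, fell to 0.665 ± 0.0257, 0.575 ± 0.00546 and 0.703 ± 0.0469.

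DNAJB2, DNAJB6 and DNAJB9 were called in opposite directions in different knock-downs. DNAJB2, which binds ubiquitinated clients and is abundant in neurons, had 15.26, 15.30 and 15.26 on the control arrays. It had 15.25, 15.31 and 15.33 after DBP5 siRNA, 16.25, 16.27 and 16.20 after GLE1 siRNA and 14.82, 14.90 and 14.93 after IPPK siRNA. The GLE1 arrays lay above and the IPPK arrays below all control arrays, at ratios of 1.95 ± 0.0469 and 0.761 ± 0.0302 (limma adjusted p = 3.0e-08 and 3.9e-05). A dimmer DNAJB2 feature, for another transcript record, moved the same way in both, to 2.01 and 0.549, and also fell after DBP5 siRNA, to 0.789 (limma adjusted p = 0.00859). DNAJB9, an ER partner of BiP, had 12.75, 12.77 and 12.64 on the control arrays and rose to 13.56, 13.47 and 13.43 after IPPK siRNA, a ratio of 1.7 ± 0.079 (limma adjusted p = 2.6e-05). Its fall after DBP5 siRNA was small, at 0.843 ± 0.112 with 1 array inside the control range (limma adjusted p = 0.0326). This fall was lost without control array 1 or 2 or DBP5 array 2 or 3, with adjusted p from 0.0867 to 0.123, with normexp and with the processed values of the authors.

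DNAJB6, which suppresses aggregation of its clients, gave values that differed between its array features. Its brightest feature, for record NM_005494, had 14.32, 14.29 and 14.24 on the control arrays, 13.97, 13.89 and 13.88 after GLE1 siRNA and 14.73, 14.67 and 14.63 after IPPK siRNA. A dimmer feature for the same record moved the same way. The feature for record NM_058246, another transcript of the gene, had 10.98, 10.87 and 11.11 on the control arrays, 11.52, 11.54 and 11.56 after GLE1 siRNA and 10.93, 10.81 and 10.87 after IPPK siRNA. After GLE1 siRNA the first record thus fell, to 0.774 on its brighter and 0.792 on its dimmer feature, while the other rose 1.47-fold (limma adjusted p = 4.0e-04 over all features). After IPPK siRNA both features of the first record rose, 1.31-fold and 1.39-fold, and the other was at 0.925 of control (limma adjusted p = 0.346). After DBP5 siRNA the brightest feature was at 0.924 and did not pass (limma adjusted p = 0.0825), though it did with the slide number as a block (0.0353) and without DBP5 array 1 (0.0386).

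**Figure D3:**
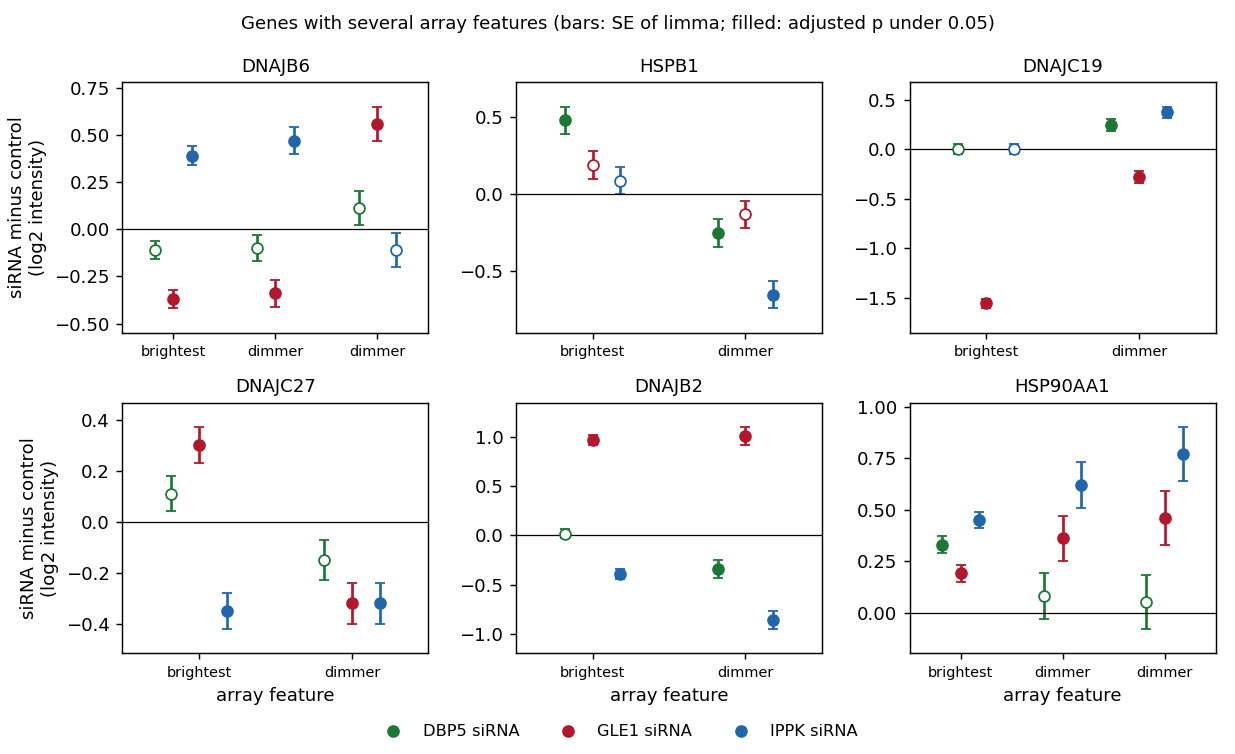
Difference from control siRNA (log2 intensity, bars the SE of limma) for each array feature of 6 genes that have several, ordered from the brightest, filled where the adjusted p over all features was under 0.05. The third feature of DNAJB6 stands at 0.56 after GLE1 siRNA where the other 2 stand at -0.37 and -0.34.

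Among 27 DNAJC genes tested, 2 fell and 9 rose after DBP5 siRNA, 9 fell and 10 rose after GLE1 siRNA, and 6 fell and 11 rose after IPPK siRNA. After GLE1 siRNA the 33.3% that fell and 37% that rose lay near the 31.5% and 30.6% of all genes. After DBP5 siRNA 7.41% fell and 33.3% rose, against 27.5% and 26.7% of all genes. After IPPK siRNA 22.2% fell and 40.7% rose, against 28% and 27.3%. DNAJC6, auxilin, which uncoats clathrin vesicles and is mostly neuronal, had 7.12, 7.49 and 7.20 on the control arrays and 10.13, 10.07 and 10.06 after GLE1 siRNA. It had 8.17, 8.12 and 8.18 after DBP5 siRNA and 8.05, 7.97 and 8.05 after IPPK siRNA, so that every knock-down lay above control and the GLE1 arrays above the rest. The rises were 1.85 ± 0.0406-fold, 7.05 ± 0.173-fold and 1.68 ± 0.0563-fold (limma adjusted p = 7.1e-06, 1.3e-09 and 2.3e-05). DNAJC16 rose 1.8 ± 0.147-fold, 2.73 ± 0.129-fold and 2.42 ± 0.065-fold, and DNAJC25 rose 2.98 ± 0.261-fold after GLE1 siRNA and 2.45 ± 0.0504-fold after IPPK siRNA. After DBP5 siRNA DNAJC25 was at 1.39 ± 0.266 with arrays that overlapped control (limma adjusted p = 0.0211), and this was lost without control array 3, DBP5 array 1 or DBP5 array 2 (adjusted p from 0.0726 to 0.0832). DNAJC24, a factor of diphthamide synthesis, had 8.18, 8.30 and 8.26 in control and between 9.31 and 9.63 in all knock-downs, a rise of 2.24-fold, 2.34-fold and 2.52-fold (limma adjusted p = 8.3e-08, 2.6e-08 and 2.6e-08).

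DNAJC9, a chaperone of newly made histones, fell furthest after IPPK siRNA. Its log2 intensities were 14.96, 15.08 and 14.93 on the control arrays, 13.91, 13.81 and 13.83 after DBP5 siRNA, 13.86, 13.91 and 13.83 after GLE1 siRNA and 12.69, 12.72 and 12.76 after IPPK siRNA. The DBP5 and GLE1 arrays overlapped each other between control and IPPK. The ratios were 0.455 ± 0.0163, 0.46 ± 0.0134 and 0.208 ± 0.00561 (limma adjusted p = 5.9e-08, 2.9e-08 and 1.1e-09). DNAJC2, a ribosome-bound J protein that works with HSPA14, fell to 0.457 after IPPK siRNA and to 0.812 after GLE1 siRNA (limma adjusted p = 2.7e-06 and 0.0169), and was at 0.948 after DBP5 siRNA (limma adjusted p = 0.544).

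In another set the largest falls were those after GLE1 siRNA. DNAJC8, a protein associated with the spliceosome, had 10.98, 11.16 and 10.96 on the control arrays and 9.59, 9.64 and 9.62 after GLE1 siRNA, at a ratio of 0.374 ± 0.00572 (limma adjusted p = 1.6e-08). Its DBP5 and IPPK arrays overlapped control, and GLE1 siRNA differed from both (limma adjusted p = 1.8e-08 and 1.4e-08). Without control array 2, DNAJC8 passed as higher after DBP5 and IPPK siRNA, by 0.21 and 0.17 on the log2 scale, and with the slide number as a block it passed after DBP5 siRNA (limma adjusted p = 0.0276). DNAJC19, part of the motor that imports proteins into mitochondria, had 13.42, 13.42 and 13.37 in control and 11.88, 11.82 and 11.83 after GLE1 siRNA, a ratio of 0.34 ± 0.00736. After DBP5 and IPPK siRNA it was at 1 ± 0.0275 and 0.997 ± 0.0263, and GLE1 siRNA differed from both (limma adjusted p = 2.9e-09 and 1.7e-09). A dimmer feature, for record NM_145261, fell less after GLE1 siRNA, to 0.825, and rose 1.18-fold and 1.29-fold after DBP5 and IPPK siRNA (limma adjusted p = 0.00124, 0.00367 and 2.3e-04). DNAJC17 fell to 0.429 ± 0.0296 after GLE1 siRNA (limma adjusted p = 3.9e-06) and was at 1.19 ± 0.209 and 1.02 ± 0.0275 after DBP5 and IPPK siRNA, from which GLE1 siRNA differed (limma adjusted p = 1.5e-06 and 3.8e-06).

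DNAJC27 and DNAJC28 were called in opposite directions. DNAJC28 had 7.43, 7.50 and 7.45 on the control arrays, 7.81, 7.84 and 7.74 after DBP5 siRNA, 6.76, 6.91 and 6.94 after GLE1 siRNA and 7.84, 7.98 and 8.03 after IPPK siRNA. It was at 0.664 ± 0.0443 after GLE1 siRNA and at 1.26 ± 0.0438 and 1.4 ± 0.0979 after DBP5 and IPPK siRNA. DNAJC27, which joins a small GTPase to a J domain, was at 1.23 ± 0.0703 after GLE1 siRNA and 0.782 ± 0.00908 after IPPK siRNA on its brighter feature. On the dimmer one it fell in both, to 0.8 and 0.801 (limma adjusted p = 0.00564 and 0.00684).

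BAG proteins release ADP and clients from HSP70, and 5 were tested. After DBP5, GLE1 and IPPK siRNA 3, 2 and 3 of them fell (60%, 40% and 60%), against 27.5%, 31.5% and 28% of all genes. In the same order 1, 1 and 0 rose (20%, 20% and 0%), against 26.7%, 30.6% and 27.3%. BAG1, which also binds BCL2, had 14.08, 14.01 and 14.08 on the control arrays, 14.58, 14.51 and 14.51 after DBP5 siRNA and 15.06, 15.06 and 15.03 after GLE1 siRNA. It rose 1.39 ± 0.0365-fold and 1.99 ± 0.021-fold (limma adjusted p = 7.1e-06 and 1.9e-08), with dimmer features close to these, and was at 1.05 ± 0.033 after IPPK siRNA. BAG4, which holds TNF receptors silent, had 9.38, 9.42 and 9.36 in control and 7.75, 7.75 and 7.55 after DBP5 siRNA. It fell to 0.307 ± 0.0242 there (limma adjusted p = 3.1e-08) and less after GLE1 and IPPK siRNA, to 0.838 ± 0.0314 and 0.865 ± 0.0646, the last lost without any one of the control arrays or IPPK array 1 (limma adjusted p from 0.053 to 0.112). DBP5 siRNA differed from both (limma adjusted p = 7.5e-08 and 1.1e-07). A second BAG4 feature for the same record, nearly as bright, fell to 0.383, 0.683 and 0.663 (limma adjusted p = 7.5e-08, 3.9e-05 and 3.1e-05).

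BAG5, an inhibitor of parkin, fell in every knock-down, to 0.628 ± 0.13, 0.515 ± 0.0212 and 0.589 ± 0.0947. BAG3, the stress-inducible member that sends clients to autophagy together with HSPB8, had 10.65, 10.47 and 10.64 on the control arrays and 10.13, 10.11 and 10.11 after IPPK siRNA. It fell there to 0.722 ± 0.00423 (limma adjusted p = 1.9e-04). Its DBP5 and GLE1 arrays overlapped control, at 0.968 ± 0.0677 and 0.908 ± 0.051. The GLE1 value passed without control array 2, at a log2 difference of -0.20 (limma adjusted p = 0.0358), and with normexp.

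HSP90 takes over partly folded clients such as kinases and receptors, and its cytosolic forms moved apart. HSP90AA1, the inducible form, had 17.14, 17.20 and 17.15 on the control arrays, 17.51, 17.47 and 17.50 after DBP5 siRNA, 17.37, 17.35 and 17.34 after GLE1 siRNA and 17.64, 17.55 and 17.63 after IPPK siRNA. It rose 1.26 ± 0.0177-fold, 1.14 ± 0.0127-fold and 1.36 ± 0.0462-fold (limma adjusted p = 7.5e-05, 0.00246 and 8.4e-06). Both dimmer features rose after GLE1 and IPPK siRNA, and after DBP5 siRNA they were at 1.05 and 1.04 of control and did not pass. HSP90AB1, the constitutive form, had 15.44, 15.34 and 15.52 in control and fell to 0.827 ± 0.075, 0.721 ± 0.0153 and 0.866 ± 0.0432 (limma adjusted p = 0.0098, 2.4e-04 and 0.0364). After IPPK siRNA this was lost with the slide number as a block (limma adjusted p = 0.0501) and without control array 1 or 3, GLE1 array 2 or IPPK array 2 or 3 (0.051 to 0.128).

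HSP90B1, or GRP94, the HSP90 of the ER, carries the ER stress element like HSPA5 but fell where HSPA5 rose. It had 15.53, 15.52 and 15.57 on the control arrays, 15.13, 14.97 and 15.03 after DBP5 siRNA, 14.91, 15.01 and 15.25 after GLE1 siRNA and 15.31, 15.16 and 15.21 after IPPK siRNA. All knock-down arrays lay below control, at ratios of 0.71 ± 0.0409, 0.716 ± 0.087 and 0.805 ± 0.0425 (limma adjusted p = 5.1e-04, 4.7e-04 and 0.00858). HSPH1, a large relative of HSP70 that acts as its nucleotide exchange factor, fell to 0.764 ± 0.0367, 0.64 ± 0.012 and 0.887 ± 0.0344 (limma adjusted p = 1.9e-04, 3.0e-06 and 0.0254), lower after GLE1 siRNA than after either other siRNA (limma adjusted p = 0.00314 and 3.7e-05). The HSPH1 fall after IPPK siRNA was lost without control array 1 or 2 or IPPK array 2 or 3 (limma adjusted p from 0.0657 to 0.0942). A dimmer HSPH1 feature fell further, to 0.734, 0.581 and 0.697 (limma adjusted p = 0.00153, 2.0e-05 and 5.4e-04).

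Of 10 chaperonin genes tested, 7 fell after DBP5 siRNA (70%, against 27.5% of all genes), 9 after GLE1 siRNA (90%, against 31.5%) and 4 after IPPK siRNA (40%, against 28%). CCT5 was the one that rose, after GLE1 and IPPK siRNA, and after IPPK siRNA 5 were not called. The shares that rose were 0%, 10% and 10%, against 26.7%, 30.6% and 27.3% of all genes. For the 8 subunits of TRiC, the cytosolic chaperonin that folds actin and tubulin, the medians were -0.25, -0.35 and -0.11 on the log2 scale. TCP1 had 12.96, 13.09 and 13.11 on the control arrays, 12.45, 12.64 and 12.44 after DBP5 siRNA, 11.92, 12.04 and 11.98 after GLE1 siRNA and 12.58, 12.75 and 12.72 after IPPK siRNA. Its ratios were 0.686 ± 0.0545, 0.475 ± 0.0206 and 0.771 ± 0.0479 (limma adjusted p = 1.1e-04, 4.2e-07 and 0.00138). A dimmer TCP1 feature fell less, to 0.794 after both DBP5 and GLE1 siRNA, and was at 0.928 after IPPK siRNA (limma adjusted p = 0.0728).

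CCT6A had 16.23, 16.19 and 16.23 in control and 15.31, 15.23 and 15.23 after GLE1 siRNA, with all 4 groups separate. It fell to 0.853 ± 0.0165, 0.515 ± 0.016 and 0.712 ± 0.0233 (limma adjusted p = 0.00143, 2.6e-08 and 6.0e-06). CCT5 had a dim feature, with 6.94, 6.98 and 7.10 on the control arrays, 8.12, 8.26 and 8.35 after GLE1 siRNA and 7.77, 7.98 and 7.98 after IPPK siRNA. These rises were 2.35 ± 0.186-fold and 1.87 ± 0.153-fold (limma adjusted p = 0.00294 and 0.0191). Its DBP5 arrays stood at 6.17, 7.56 and 7.33, on both sides of control, and without array 1 the difference moved from 0.02 to 0.44 and passed (limma adjusted p = 0.00517). The rise after IPPK siRNA was lost without control array 1, IPPK array 2 or IPPK array 3, with limma adjusted p from 0.0516 to 0.053.

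HSPD1 and HSPE1, the mitochondrial HSP60 and its lid HSP10, are neighbours with a shared promoter region. HSPD1 had 17.68, 17.46 and 17.65 on the control arrays, 17.51, 17.46 and 17.46 after DBP5 siRNA, 17.10, 17.15 and 17.11 after GLE1 siRNA and 17.66, 17.71 and 17.70 after IPPK siRNA. It fell to 0.719 ± 0.0139 after GLE1 siRNA (limma adjusted p = 4.3e-05) and did not pass after DBP5 and IPPK siRNA, at 0.919 and 1.07. GLE1 siRNA differed from both (limma adjusted p = 4.8e-04 and 1.3e-05). Without control array 2 HSPD1 also passed as lower after DBP5 siRNA, by 0.19 on the log2 scale (limma adjusted p = 0.00712). HSPE1 had 17.63, 17.70 and 17.64 in control, 17.10, 17.00 and 17.02 after DBP5 siRNA and 16.92, 16.96 and 16.96 after GLE1 siRNA. HSPE1 fell to 0.653 ± 0.0253 and 0.613 ± 0.0116 (limma adjusted p = 1.3e-06 and 2.5e-07), and after IPPK siRNA was at 0.927 ± 0.0147 (limma adjusted p = 0.0646, and 0.0395 without DBP5 array 1).

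**Figure D4:**
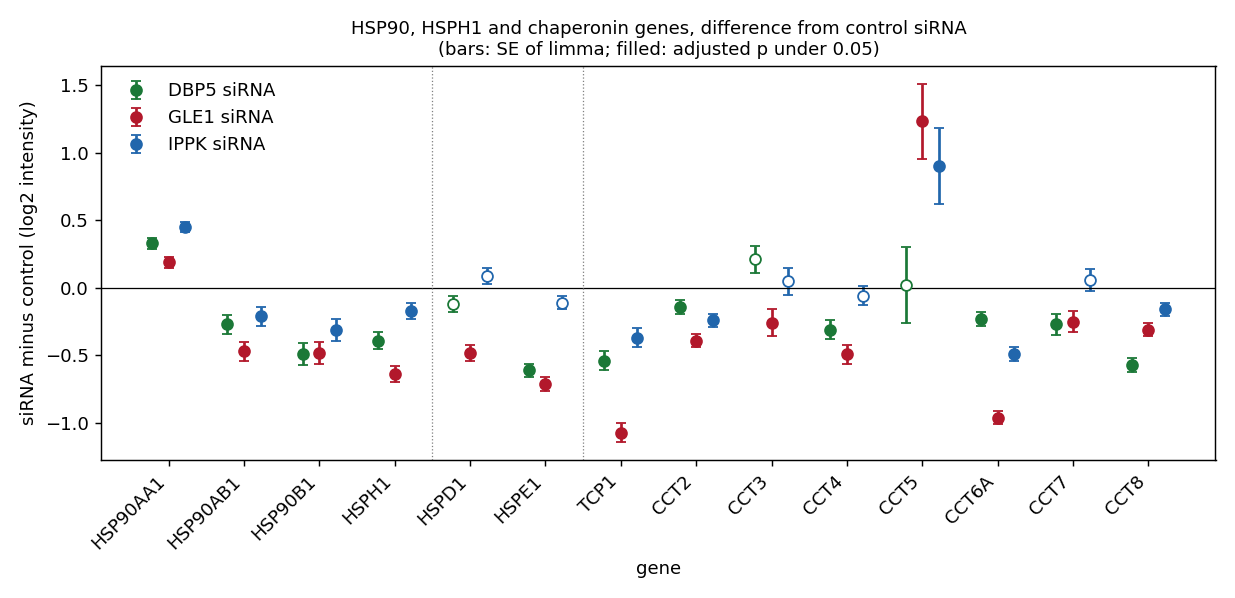
Difference from control siRNA (log2 intensity, bars the SE of limma) of the HSP90 and HSPH1 genes, the mitochondrial chaperonin pair and the 8 TRiC genes tested, filled where the adjusted p was under 0.05. HSP90AA1 is above 0 in each knock-down, at 0.19 to 0.45, and CCT5 is the chaperonin gene that rose, with the widest error bars.

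The small heat shock proteins held the largest rise among the family genes and several movements in opposite directions. Of 7 tested, 3 rose and 2 fell after DBP5 siRNA, 4 rose and none fell after GLE1 siRNA, and 1 rose and 3 fell after IPPK siRNA. The shares that rose were 42.9%, 57.1% and 14.3%, against 26.7%, 30.6% and 27.3% of all genes, and those that fell were 28.6%, 0% and 42.9%, against 27.5%, 31.5% and 28%. HSPB3, known from skeletal muscle, had 5.64, 6.03 and 5.71 on the control arrays, 8.80, 8.81 and 8.76 after DBP5 siRNA, 11.30, 11.38 and 11.16 after GLE1 siRNA and 6.24, 5.98 and 6.30 after IPPK siRNA. The control, DBP5 and GLE1 arrays formed separate steps, and the IPPK arrays overlapped control. The ratios to control were 8.0 ± 0.166 and 45 ± 3.41 for DBP5 and GLE1 (limma adjusted p = 1.3e-08 and 2.5e-10). With normexp background correction the log2 differences were 2.05 and 4.27 in place of 3.00 and 5.49. After IPPK siRNA the ratio was 1.31 ± 0.148 (limma adjusted p = 0.0136), and this call was lost with normexp (adjusted p = 0.156) and without control array 1 or IPPK array 3 (0.0563 and 0.0545).

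HSPB7, known from heart muscle, was dim in control, at 4.34, 4.38 and 4.46. It had 5.04, 5.50 and 5.48 after DBP5 siRNA, 7.35, 7.48 and 7.37 after GLE1 siRNA and 3.65, 3.64 and 4.21 after IPPK siRNA, where no array was well above background. The GLE1 ratio to control was 8.04 ± 0.404 and the DBP5 ratio 1.93 ± 0.328 (limma adjusted p = 6.0e-08 and 4.9e-04). With normexp these log2 differences were 1.37 and 0.26 in place of 3.01 and 0.95. With the local background subtracted, HSPB7 was at least 10.1-fold higher after GLE1 siRNA, and at least 2.42-fold higher after DBP5 siRNA, than after IPPK siRNA. These bounds hold for that correction alone, since with normexp the differences were 2.83-fold and 1.32-fold (limma adjusted p = 5.8e-10 and 9.0e-05). The fall from control after IPPK siRNA was at least 1.25-fold with the subtraction (limma adjusted p = 0.0123) and 1.1-fold with normexp, and it was lost with normexp, with the processed values of the authors and without IPPK array 2.

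HSPB2, a muscle protein that binds the myotonic dystrophy kinase, had 10.32, 10.40 and 10.34 on the control arrays, 9.72, 9.79 and 9.82 after DBP5 siRNA, 11.01, 10.94 and 10.93 after GLE1 siRNA and 9.15, 8.99 and 9.13 after IPPK siRNA. The 4 groups did not overlap, with GLE1 above control and DBP5 and IPPK below. Its ratios were 0.672 ± 0.0244, 1.52 ± 0.0487 and 0.417 ± 0.024 (limma adjusted p = 9.7e-06, 4.1e-06 and 3.0e-08). CRYAB, the small heat shock protein whose gene lies head to head with HSPB2, is outside the family symbols. It was at 11.48, 11.46 and 11.44 in control, 11.82, 12.06 and 12.03 after DBP5 siRNA, 13.22, 13.25 and 13.11 after GLE1 siRNA and 11.11, 10.94 and 11.06 after IPPK siRNA. The pair thus moved the same way after GLE1 and IPPK siRNA and in opposite directions after DBP5 siRNA, where CRYAB rose by 0.51 on the log2 scale (limma adjusted p = 1.7e-04). After GLE1 and IPPK siRNA its log2 differences were 1.74 and -0.43 (limma adjusted p = 1.3e-08 and 5.5e-04).

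HSPB8, the partner of BAG3, had 10.83, 10.83 and 10.82 on the control arrays and 12.17, 12.09 and 12.10 after GLE1 siRNA. It had 10.37, 10.48 and 10.35 after DBP5 siRNA and 10.24, 10.46 and 10.43 after IPPK siRNA, below all control arrays in both. It rose 2.45 ± 0.0721-fold after GLE1 siRNA and fell to 0.743 ± 0.0369 and 0.733 ± 0.0587 after DBP5 and IPPK siRNA (limma adjusted p = 3.5e-08, 2.0e-04 and 1.5e-04). HSPB1, or HSP27, the widespread stress-inducible member, had 16.82, 16.74 and 16.69 in control and 17.06, 17.31 and 17.34 after DBP5 siRNA, where it rose 1.4 ± 0.145-fold (limma adjusted p = 8.1e-04). A dimmer HSPB1 feature had 11.17, 11.07 and 11.18 in control and moved down, to 0.839 after DBP5 siRNA and 0.639 after IPPK siRNA (limma adjusted p = 0.0326 and 1.1e-04). After GLE1 and IPPK siRNA the brightest feature was at 1.14 ± 0.102 and 1.07 ± 0.0465 and did not pass. The 2 features of HSPB1 give no single direction after DBP5 siRNA.

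**Figure D5:**
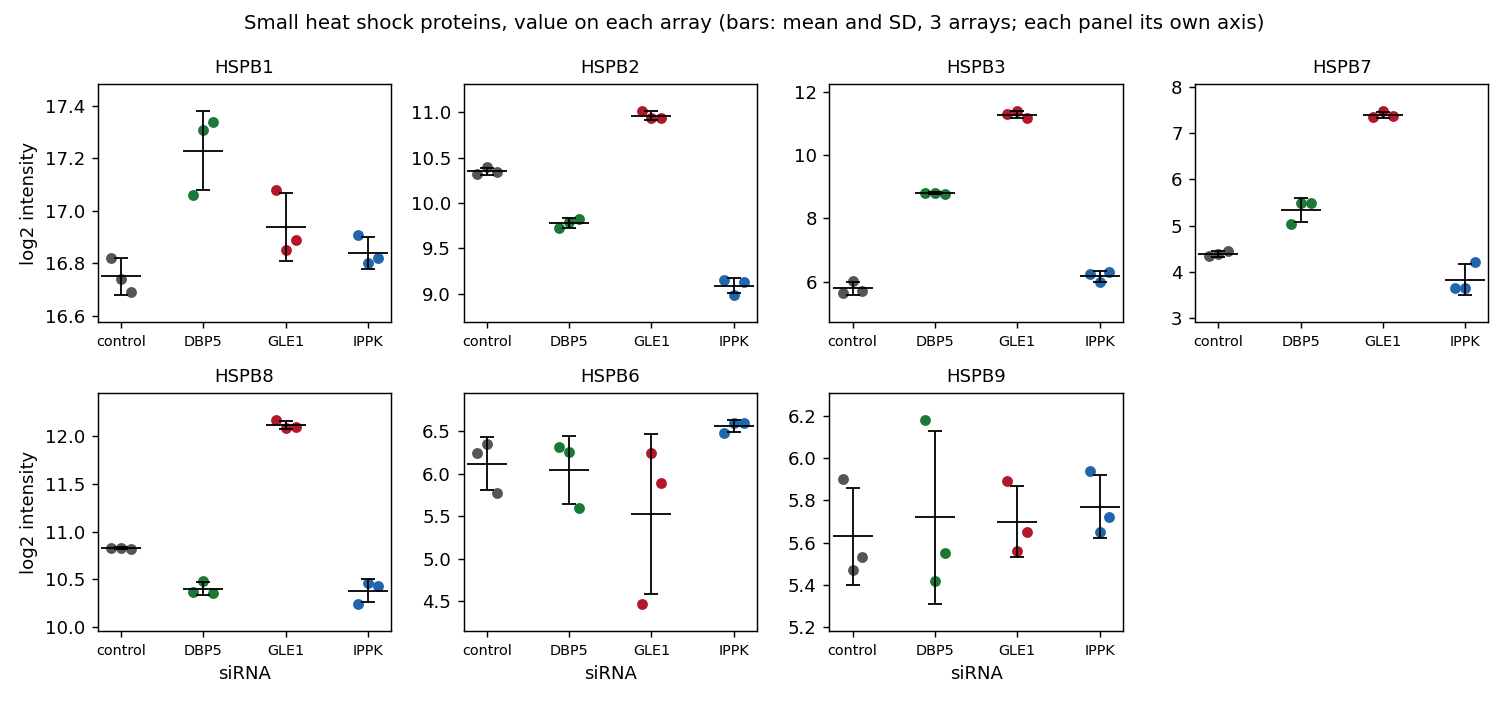
Log2 intensity (vertical axis) of the 7 small heat shock protein genes on each array (coloured points) by siRNA, with the mean and SD of 3 arrays in black, each panel on its own axis. HSPB2 and HSPB8 are above control on the GLE1 arrays and below it on the DBP5 and IPPK arrays, while HSPB3 steps up from control to DBP5 to GLE1.

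The genes were also counted by response and compartment, with no test between the lists. Of 14 chaperones known as stress-inducible targets of HSF1, 6 fell and 4 rose after DBP5 siRNA, 9 fell and 1 rose after GLE1 siRNA, and 5 fell and 3 rose after IPPK siRNA. The shares that fell were 42.9%, 64.3% and 35.7%, against 27.5%, 31.5% and 28% of all genes, and those that rose were 28.6%, 7.14% and 21.4%, against 26.7%, 30.6% and 27.3%. Their median log2 differences were -0.11, -0.50 and -0.13, and HSP90AA1 was the gene that rose after GLE1 siRNA. Of 8 ER chaperones, 3 fell and 2 rose, 1 fell and 2 rose, and 1 fell and 5 rose, in the same order. DNAJB12 of the ER membrane, which fell in every knock-down, is not in this list. The 5 that rose after IPPK siRNA were HSPA5, DNAJB9, DNAJB11, DNAJC3 and DNAJC10, of which HSPA5 and DNAJB9 passed 1.5-fold. The shares of ER chaperones that rose were 25%, 25% and 62.5%, and those that fell 37.5%, 12.5% and 12.5%. DNAJC10, a disulfide reductase of the ER, has a dimmer second feature for the same transcript record, whose ratios to control in the same order were 1.39, 1.79 and 1.93 (limma adjusted p = 0.00211, 3.0e-05 and 1.6e-05), where the brightest was at 0.889, 1.0 and 1.19. Of 8 mitochondrial chaperones, 2 fell and 1 rose after DBP5 siRNA, 5 fell and 1 rose after GLE1 siRNA and 1 fell after IPPK siRNA, with medians of -0.07, -0.51 and -0.01. The shares that fell were 25%, 62.5% and 12.5%, against 27.5%, 31.5% and 28% of all genes, and those that rose 12.5%, 12.5% and 0%. DNAJC30 of this list, not called after DBP5 and GLE1 siRNA on its brightest feature, was at 0.576 and 0.518 of control on its dimmer one (limma adjusted p = 1.6e-05 and 2.6e-06). In all, 9 family genes have features that differed by more than 1.5-fold in at least one knock-down, namely DNAJB6, DNAJC5, DNAJC10, DNAJC19, DNAJC21, DNAJC27, DNAJC30, HSPB1 and TCP1.

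Co-chaperones and folding factors without a family symbol were counted from 3 further lists. Over their 38 genes tested, 14 fell and 10 rose after DBP5 siRNA, 15 fell and 11 rose after GLE1 siRNA, and 10 fell and 12 rose after IPPK siRNA. The shares that fell were 36.8%, 39.5% and 26.3%, against 27.5%, 31.5% and 28% of all genes, and those that rose were 26.3%, 28.9% and 31.6%, against 26.7%, 30.6% and 27.3%. The lists differed in their counts, with no test between them. Of 20 co-chaperones of HSP70 and HSP90, 8 fell and 5 rose after DBP5 siRNA, 10 fell and 5 rose after GLE1 siRNA, and 5 fell and 7 rose after IPPK siRNA. Of 10 prefoldin subunits and nascent chain factors, 5 fell and 2 rose, 5 fell and 1 rose, and 3 fell and 1 rose. Of 8 chaperones and J proteins under other names, 1 fell and 3 rose, 0 fell and 5 rose, and 2 fell and 4 rose. Among co-chaperones of HSP70 and HSP90, FKBP5, an immunophilin of steroid receptor complexes, fell by 0.82, 0.96 and 0.27 on the log2 scale, and PPID, a cyclophilin of the same complexes, fell by 0.41, 0.89 and 0.55. FKBP4 of the same list rose by 0.66 after DBP5 siRNA and 0.31 after IPPK siRNA (limma adjusted p = 4.5e-06 and 9.1e-04). After GLE1 siRNA FKBP4 differed from control by -0.21 (limma adjusted p = 0.00996). CDC37L1, a relative of the kinase co-chaperone CDC37, fell by 1.07 after GLE1 siRNA (limma adjusted p = 1.3e-07) and differed from control by -0.01 and 0.00 after DBP5 and IPPK siRNA. CHORDC1, a cysteine-rich HSP90 partner, rose in all 3 by 0.71, 0.65 and 0.77. The mitochondrial HSP90 TRAP1 rose by 0.84, 1.02 and 0.79, and the mitochondrial disaggregase CLPB by 1.00, 1.46 and 1.30 (limma adjusted p from 2.3e-08 to 3.3e-06 over these 6 values).

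Knock-downs were also compared directly. GLE1 siRNA gave lower values than DBP5 siRNA for 29 of the 81 genes and higher ones for 24, where 28% and 26.5% of all genes differed in those directions. GLE1 siRNA was lower than IPPK siRNA for 37 genes and higher for 22, where the shares of all genes were 30.7% and 29.4%. DBP5 siRNA was lower than IPPK siRNA for 26 genes and higher for 19, against 25.1% and 23.8%. Among the 81 genes the widest separations in these comparisons were those of HSPB3, which was higher after GLE1 siRNA than after DBP5 siRNA by 2.49 and than after IPPK siRNA by 5.11 on the log2 scale (limma adjusted p = 3.8e-08 and 3.9e-10).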

How the data were processed

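Cytoplasmic RNA of U2OS cells was hybridised to one-colour Agilent whole human genome arrays, 12 in all. Per the file headers, Feature Extraction 10.7.3.1 had subtracted the local background and corrected spatial trends in the deposited spot intensities, with no scaling between arrays. The deposited log2 table of the authors, normalized by them with LOESS in R, correlated at 0.9998 to 1 per array with the median spot intensity without background subtraction and at 0.9612 to 0.9665 with the subtracted one, and served as an alternative. Here the log2 processed intensities were averaged over spots of a probe after removal of 169 to 358 outlier spots per array, normalized by cyclic loess with limma 3.58.1 in R 4.3.3, and reduced to the brightest probe per gene. Gene names came from RefSeq (GRCh38.p14) through the transcript accession, which matched 26449 of 34127 probes (77.5%). Between 70.9% and 77.7% of probes were well above background on an array, and no spot was saturated. Precision is limited by the 3 arrays per group. Of 27522 gene names, 20821 entered one limma fit over all arrays, and p-values were adjusted by Benjamini-Hochberg within each comparison. The fit was also run on simulated data with independent arrays and no slide effect, which bears on the code and not on these p-values.

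Where a group had no array of a gene well above background, its fold is given as a bound against the higher of the dim gene's own value and the lowest value well above background on each array. Tests on single features were adjusted over all features. The family genes, the gene lists and the tests were chosen with earlier results of these data known. Genes were named where they are standard members of the families, where they passed the threshold with at least 1.5-fold change and non-overlapping arrays (at most 6 per family), or where they were called in opposite directions. HSPA14, CCT3, DNAJC2, DNAJC10, DNAJC11, DNAJC17, DNAJC24, DNAJC30 and the genes outside the families were picked after their values were seen. Replicate numbers mark the slide. Deviations from the group means correlated at 0.318 to 0.513 in all 18 pairs of arrays with the same number, so the number pairs the arrays. In the 36 other pairs they correlated at -0.285 to -0.0495. Since the deviations of a group cancel, these negative values follow from the positive ones and are no separate evidence. A fit with the number as a block was made beside the fit without it, and the limma p-values given are from the latter unless stated. Other alternatives changed the background correction (normexp on median spot and background signals, offset 50), the normalization (quantile, or the 75th percentile of each array), the filter on dim probes (none, or all 12 arrays required), the probe (each dimmer one, or their mean), the arrays (6 alone, or 1 omitted) or the test (the paired t-test of the methods). Figures were drawn with matplotlib 3.10.9.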

Additional observations from a re-analysis of the deposited data

Results flagged for a closer look

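Several genes lay above control in one knock-down and below it in another, and the direct test between those knock-downs passed. All values are differences of log2 intensity with adjusted p from limma, in knock-downs set against the same control arrays, and their cause was not tested.

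Among the small heat shock proteins, HSPB2 was higher after GLE1 siRNA than after DBP5 siRNA by 1.18 (adjusted p = 5.4e-08) and than after IPPK siRNA by 1.87 (2.1e-09). HSPB8 was higher after GLE1 siRNA than after DBP5 siRNA by 1.72 (adjusted p = 1.2e-08) and than after IPPK siRNA by 1.74 (7.3e-09). HSPB7 was not well above background on any IPPK array, and the size of its difference there depends on the background correction. With the local background subtracted the fit put it higher than after IPPK siRNA by 3.57 after GLE1 siRNA and 1.51 after DBP5 siRNA (adjusted p = 2.5e-08 and 2.5e-05), and with normexp it was 2.83-fold and 1.32-fold higher (5.8e-10 and 9.0e-05).

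Among the J proteins, DNAJB2 was higher after GLE1 siRNA than after IPPK siRNA by 1.36 (adjusted p = 4.8e-09). The brightest feature of DNAJB6 was higher after IPPK siRNA than after GLE1 siRNA by 0.76 (adjusted p = 4.0e-07), and the feature for another transcript record, was higher after GLE1 siRNA than in control. DNAJB9 was higher after IPPK siRNA than after DBP5 siRNA by 1.01 (adjusted p = 5.1e-06). Its fall from control after DBP5 siRNA was small and was lost with normexp and without some single arrays. DNAJC27 was higher after GLE1 siRNA than after IPPK siRNA by 0.65 on its brighter feature (adjusted p = 1.1e-05), while its dimmer feature for the same record stood at -0.32 from control in both. DNAJC28 was higher after DBP5 siRNA than after GLE1 siRNA by 0.93 (adjusted p = 9.8e-07) and higher after IPPK siRNA than after GLE1 siRNA by 1.08 (2.5e-07).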

How the results depend on the processing

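For the 45 named genes, 135 differences from control were recomputed under 3015 combinations of gene, knock-down and alternative. Direction and side of the threshold held in 2896, the call was lost in 77 and gained in 32, and the direction turned in 10. With the replicate number (the slide) as a block the counts of lower and higher genes were 32 and 23 for DBP5, 38 and 24 for GLE1 and 29 and 24 for IPPK. Of all genes 6147 and 5854, 6882 and 6797, and 6336 and 6071 were called with it. The block ended the call of HSP90AB1 after IPPK siRNA (adjusted p = 0.0501 by limma) and added those of HSPA8 after IPPK siRNA and of DNAJB6 and DNAJC8 after DBP5 siRNA, and it changed no other call against control among the named genes.

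The paired t-test of the methods, which uses each gene's own spread over 3 pairs and was adjusted like the main test, gave 14 lower and 9 higher genes for DBP5, 31 and 22 for GLE1 and 19 and 15 for IPPK. Of all genes it called 2603 and 2443, 4992 and 4824, and 3689 and 3943. Differing family genes numbered 27 in place of 53 between GLE1 and DBP5 siRNA and 17 in place of 45 between DBP5 and IPPK siRNA. The counts over all genes dropped too. After GLE1 siRNA 2791 of them were lower and 2518 higher than after DBP5 siRNA, in place of 5838 and 5526. After DBP5 siRNA 2072 were lower and 1877 higher than after IPPK siRNA, in place of 5220 and 4963. Without adjustment, at the threshold the methods name, the paired t-test gave 23 lower and 16 higher family genes for DBP5, 37 and 23 for GLE1 and 29 and 22 for IPPK. Unadjusted counts over all genes are not given here.

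Omission of 1 array gave 27 to 31 lower and 20 to 25 higher genes for DBP5, 36 to 39 and 23 to 25 for GLE1 and 25 to 30 and 18 to 24 for IPPK. Over all genes these ranges were 5211 to 5834 and 5089 to 5608 for DBP5. They were 6101 to 6619 and 5860 to 6486 for GLE1, and 5281 to 5989 and 5195 to 5839 for IPPK. Differing family genes ranged from 45 to 54 for GLE1 against DBP5, 50 to 60 for GLE1 against IPPK and 37 to 48 for DBP5 against IPPK.

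The 10 reversals came from dimmer features or the mean of a gene's features. On the log2 scale dimmer features gave -0.34 for DNAJB2 after DBP5 siRNA, 0.56 and -0.11 for DNAJB6 after GLE1 and IPPK siRNA, 0.37 for DNAJC19 after IPPK siRNA, -0.32 for DNAJC27 after GLE1 siRNA, and -0.25 and -0.65 for HSPB1 after DBP5 and IPPK siRNA. The mean of features gave 0.18 for DNAJC19 and -0.28 for HSPB1 after IPPK siRNA and -0.01 for DNAJC27 after GLE1 siRNA. With normexp background correction HSPA2 was at -0.29 and -0.34 after DBP5 and IPPK siRNA, under the bounds of at least 2-fold and 1.49-fold that local subtraction gave. Scaling to the 75th percentile put the median of all genes at -0.07, 0.00 and -0.07.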
